A study of Mus musculus with 9 samples.

Results

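The genes described here are 35 markers of mature oligodendrocytes (OLGs), the cells that wrap axons of the central nervous system in myelin, and they leave out the structural myelin proteins, the myelin lipid enzymes and the transcription factors of the lineage. They were taken as a list of symbols. All 35 were found by Ensembl ID among the 43629 genes of the deposited count table, and all 35 were among the 19753 genes with enough counts to be tested. Frontal cortex RNA came from 4 Neat1-/- mice (replicates 1, 3, 4 and 5, aged 3, 3, 4 and 2 months) and 5 wild-type (WT) mice (replicates 1 to 5, aged 2, 2, 3, 4 and 4 months). All 9 mice were C57BL/6 females, and each gave 1 library. In the Neat1-/- allele a lacZ cassette with polyadenylation signals follows the Neat1 start site, in all cells and not in OLGs alone. The sources used here do not say whether the WT mice were littermates. The tissue was grey matter from the frontal pole back to the parietal cortex, so it held neurons and all glia, and in such bulk tissue fewer OLGs and less RNA per OLG cannot be told apart.

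Neat1, a long noncoding RNA that scaffolds nuclear paraspeckles, averaged 8.14 ± 1.18 CPM (SD, n = 4) in Neat1-/- mice and 81.5 ± 23.0 CPM (SD, n = 5) in WT mice, where CPM is the count per 1000000 counts after TMM scaling of the libraries. Errors after ± are SDs over these mice throughout. Total counts ranged from 51276067 to 64648856 per library. The summed level of 12 neuronal markers ranged from 9815 to 10271 CPM in Neat1-/- mice and from 9583 to 10107 CPM in WT mice. These markers do not show whether each dissection took the same region. A list of 12 striatal markers summed to 225, 262, 216 and 251 CPM in Neat1-/- mice. In WT mice it summed to 302, 233, 220, 215 and 224 CPM, highest in WT replicate 1. The part of such differences in dissection in the values below was not tested. WT replicates 3 and 4 stood apart from the other libraries on the first principal component, with scores of 47.8 and 42.1 against -17.8 to -4.80 for the other 7, so the counts of nominally lower genes among the 35 and in the lists of other genes are also given without them; that alternative for the lists was chosen after seeing the data.

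An OLG matures from a progenitor by leaving the cell cycle, switching on its myelin genes and spreading membrane around axons. The 35 genes serve the rest of the mature cell: receptors for lipid signals, gap junctions to astrocytes and along the myelin sheath, the cytoskeleton that carries membrane outwards, secreted iron and matrix proteins, and enzymes that supply carbon dioxide hydration, creatine and cofactors. Several are also used by other brain cells. Enpp2 is strongly expressed in choroid plexus, Mcam is best known from endothelial cells and pericytes, Apod and Gsn are found in fibroblasts of the meninges, and Qk is also expressed in astrocytes.

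RefSeq promoter sequences (build GRCm38.p6, from 250 bases before to 50 bases after an annotated start) were matched by symbol to 25 of the 35 genes, which had 38 windows in all. Windows were searched on both strands for ACAAAG, a core bound by SOX proteins, for CAGATG, a form of the E-box bound by the helix-loop-helix family of OLIG1 and OLIG2, and for CTGGCAC, a core bound by MYRF. Matches of different motifs overlapped in 0 of the 38 windows. ACAAAG was in 26.3% of the 38 windows, against 18.7% of all 32851 windows of the same length. CAGATG was in 34.2% of them, against 17.2% of all windows, and CTGGCAC in 13.2%, against 5.01%. A match is only a run of letters, windows of 1 gene can overlap, and no binding was measured. Of the genes whose RNA was lower in Neat1-/- mice at an unadjusted p under 0.05, Efhd1, Prr5l, Tspan2, Gjc3, Gpr37 and Mcam had windows. A window is shown for 4 of them, to show examples with and without a match, chosen after the matches were seen. Prr5l and Tspan2 have several annotated starts, and the window farthest upstream is shown for each; the other Prr5l windows held no match, and the other Tspan2 window held ACAAAG. Not shown are Efhd1, with no match, and Gpr37, with CAGATG. Capitals mark a match, and distances are from the start that the window belongs to.
Mcam, chr9:44134408-44134707, plus strand, with no match: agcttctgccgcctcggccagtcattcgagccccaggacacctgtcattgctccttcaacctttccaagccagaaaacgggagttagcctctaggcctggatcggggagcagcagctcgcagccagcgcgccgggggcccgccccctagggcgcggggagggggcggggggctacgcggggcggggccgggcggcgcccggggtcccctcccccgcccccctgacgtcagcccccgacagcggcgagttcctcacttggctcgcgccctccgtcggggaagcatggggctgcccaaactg
Gjc3, chr5:137963049-137963348, minus strand, with CAGATG beginning 59 bases before the start: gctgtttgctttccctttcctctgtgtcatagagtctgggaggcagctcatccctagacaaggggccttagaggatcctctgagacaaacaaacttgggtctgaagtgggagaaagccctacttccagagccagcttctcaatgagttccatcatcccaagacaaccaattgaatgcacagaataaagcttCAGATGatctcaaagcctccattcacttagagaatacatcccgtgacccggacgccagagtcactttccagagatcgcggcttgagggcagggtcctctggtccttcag
Tspan2, chr3:102734520-102734819, plus strand, with CATCTG, the other strand of CAGATG, beginning 169 bases before the start: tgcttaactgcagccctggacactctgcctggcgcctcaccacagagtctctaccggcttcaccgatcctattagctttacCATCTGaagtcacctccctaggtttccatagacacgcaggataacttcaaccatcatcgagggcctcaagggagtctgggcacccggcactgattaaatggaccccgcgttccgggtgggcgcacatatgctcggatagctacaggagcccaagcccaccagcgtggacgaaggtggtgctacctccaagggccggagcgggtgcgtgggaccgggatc
Prr5l, chr2:101882978-101883277, minus strand, with CTTTGT, the other strand of ACAAAG, beginning 188 bases before the start and CAGATG 46 bases before it: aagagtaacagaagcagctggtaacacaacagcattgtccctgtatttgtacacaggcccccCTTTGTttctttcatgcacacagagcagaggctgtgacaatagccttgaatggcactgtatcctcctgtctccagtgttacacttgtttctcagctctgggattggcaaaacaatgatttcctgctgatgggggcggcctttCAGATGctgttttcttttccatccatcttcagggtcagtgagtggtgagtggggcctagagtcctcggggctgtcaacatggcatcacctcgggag

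The 35 genes were slightly lower in Neat1-/- mice as a list, and no single gene passed correction over all genes by the main test. The fitted log2 fold change (Neat1-/- over WT) was below 0 for 33 of the 35, where 50.1% of all genes tested were below 0. The median over the 35 was -0.18 and the range was -0.38 for Prr5l to 0.31 for Klk6, while the median of all genes tested was -0.00023. By edgeR's quasi-likelihood test with age as a covariate, 0 of the 35 reached an adjusted p of 0.05 in either direction (0.0709% of all genes did), and their adjusted p-values ran from 0.326 to 0.993. At an unadjusted p under 0.05 in that test, called nominal from here on, 10 of the 35 were lower in Neat1-/- mice (28.6%, against 4.03% of all genes tested), namely Enpp2, Gpr37, Gjc3, Tspan2, Mcam, Evi2a, Bcas1, Car2, Prr5l and Efhd1. None was higher at that level (0 of 35, against 4.27%). In Enpp2 and Mcam every Neat1-/- mouse lay below every WT mouse (2 of 35, against 1.01% of all genes tested), and 0 of 35 had every Neat1-/- mouse above every WT mouse (1.66%).

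These counts depended on the test and on single mice. DESeq2 called 2 of the 35 at an adjusted p of 0.05 (0.591% of the genes it adjusted), Enpp2 with an adjusted p of 0.020 and Mcam with an adjusted p of 0.0406. edgeR without the filter on low counts called 1 (0.236%), Enpp2 with an adjusted p of 0.0327, and limma's voomWithQualityWeights called 0 (0.111%). At an unadjusted p, 17 of 35 were lower without the filter (4.21% of all genes tested), 18 with the replicate number as a block (5.78%) and 6 by limma voom (4.39%). Leaving out WT replicate 2 raised the count of lower genes to 18 (5.37%) and that of wholly separated genes to 9 (2.28%), and leaving out Neat1-/- replicate 1 raised the lower count to 21 (3.11%). It was 6 when WT replicate 1 (4.38%), Neat1-/- replicate 3 (2.68%) or Neat1-/- replicate 4 (3.53%) was dropped, and in these fits it was the same 6 genes: Enpp2, Mcam, Gjc3, Car2, Prr5l and Efhd1. Gpr37, Tspan2, Evi2a and Bcas1 were thus no longer nominally lower in any of these fits, Gpr37 and Tspan2 also not without WT replicate 5, and Gpr37, Evi2a and Bcas1 also not without WT replicate 3. Without both WT replicates 3 and 4 it was also 6 (3.48%), with Gamt and Tspan2 in place of Gjc3 and Car2, the median log2 fold change was -0.15, and 2 genes were wholly separated (3.72% of all genes tested). By role, the lower genes then numbered 1 receptor or ligand enzyme, 2 membrane proteins, 0 cytoskeleton proteins, 0 secreted proteins, 1 metabolic enzyme and 2 stress or signalling proteins.

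**Figure D1:**
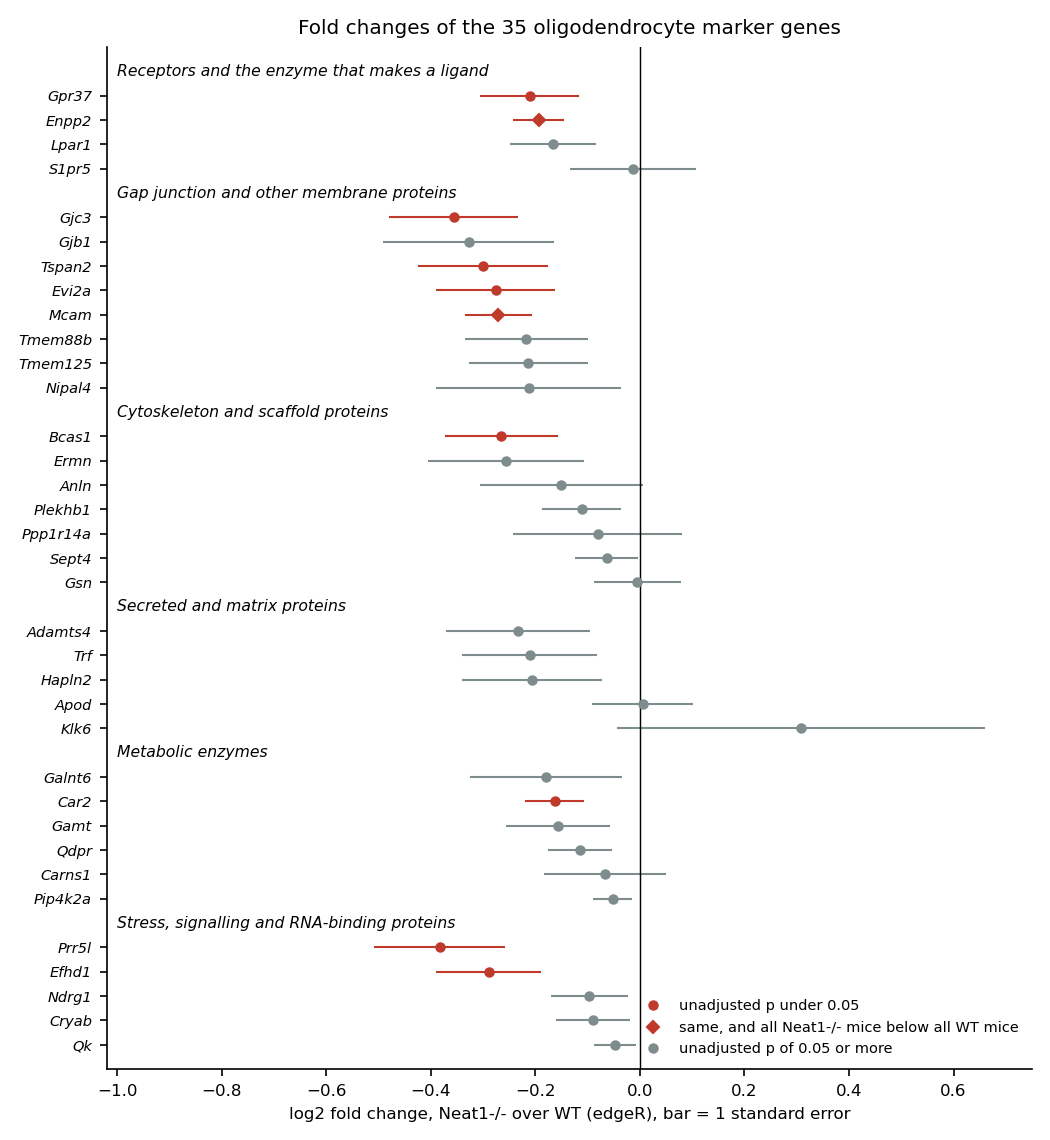
Fitted log2 fold change of each of the 35 genes (x axis, Neat1-/- over WT, edgeR with age as a covariate; bars are 1 standard error), grouped by role. Of the 35 points 33 lie left of 0; the 10 in red had an unadjusted p under 0.05, and the 2 diamonds, Enpp2 and Mcam, mark genes in which the mice of each genotype did not overlap.

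Receptors and the enzyme that makes a ligand were led by Enpp2, which encodes autotaxin, the secreted enzyme that turns lysophosphatidylcholine into lysophosphatidic acid (LPA). Enpp2 (chromosome 15, 54838901 to 54952892) had 291, 266, 276 and 290 CPM in Neat1-/- mice, against 319, 307, 360, 303.5 and 316 CPM in WT mice. The highest Neat1-/- mouse was therefore below the lowest WT mouse, and the WT mouse at 360 CPM (replicate 3) stood above its group. For Enpp2 the fitted log2 change was -0.19 (SE, the standard error, 0.0493, unadjusted p = 0.00179, adjusted p = 0.388 from edgeR), and the two-sided exact permutation test of its CPM gave p = 0.00794, the lowest value that groups of this size can give. WT replicate 3 also had the most RNA of choroid plexus, where Enpp2 is strong. All 15 listed choroid plexus markers had counts in every library, 11 were tested, their summed level was 17.4 to 30.3 CPM in Neat1-/- mice and 24.8 to 127 CPM in WT mice, and the value of 127 CPM was that of WT replicate 3. Transthyretin (Ttr), the defining marker, had 20.6, 19.4, 12.1 and 9.55 CPM in Neat1-/- mice and 18.0, 17.0, 102, 20.3 and 14.7 CPM in WT mice. Without WT replicate 3, Enpp2 had a log2 fold change of -0.15 (unadjusted p = 0.000781 from edgeR), and the choroid plexus markers had a median of -0.17. The part of choroid plexus RNA in the Enpp2 value was not tested.

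Gpr37, an orphan receptor of OLGs known in mice to restrain their differentiation, had 47.4, 35.5, 40.2 and 39.3 CPM in Neat1-/- mice, against 44.3, 35.1, 50.6, 50.9 and 56.3 CPM in WT mice. Its groups overlapped, since WT replicate 2 had the lowest value of all 9 mice. For Gpr37 the fitted log2 change was -0.21 (SE 0.0948, unadjusted p = 0.0451), and 10 of 20 alternative fits kept it at an unadjusted p under 0.05. Lpar1, a receptor for LPA, averaged 27.4 ± 3.16 CPM in Neat1-/- mice and 30.8 ± 2.99 CPM in WT mice, with a log2 fold change of -0.17 (unadjusted p = 0.0670). S1pr5, the sphingosine-1-phosphate receptor of mature OLGs, averaged 10.7 ± 1.44 CPM in Neat1-/- mice and 10.8 ± 1.85 CPM in WT mice. Its log2 fold change was -0.01, and the sign turned in several alternatives.

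Of 17 listed partners in LPA and sphingosine-1-phosphate signalling, 16 were tested. Of these, 0 were nominally lower and 0 nominally higher (against 4.03% and 4.27% of all genes tested). Their median log2 fold change was 0.02, and the 2 with the highest level, Plpp3, a phosphatase that removes lipid phosphates, and S1pr1, a receptor, had log2 fold changes of 0.09 and 0.01.

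Gap junction and other membrane proteins had the lowest median of the 6 role groups, at -0.27, and all 8 were below 0, with 4 at an unadjusted p under 0.05. Gjc3 encodes connexin 29, which OLGs and Schwann cells place in the inner layer of myelin. Gjc3 (chromosome 5, 137953461 to 137963098) had 26.0, 17.9, 20.4 and 26.2 CPM in Neat1-/- mice, against 32.8, 23.1, 33.7, 27.3 and 27.7 CPM in WT mice. Only WT replicate 2 lay within the Neat1-/- range. For Gjc3 the fitted log2 change was -0.36 (SE 0.123, unadjusted p = 0.0129, adjusted p = 0.543 from edgeR), and of the alternative fits 18 of 20 kept it under 0.05. Gjb1 encodes connexin 32, the gap junction protein between myelin layers. It averaged 5.90 ± 1.29 CPM in Neat1-/- mice and 7.51 ± 1.72 CPM in WT mice, with a log2 fold change of -0.33 (unadjusted p = 0.0672).

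Mcam, a cell adhesion protein of the immunoglobulin family (CD146), had the lowest p-value of the 35. Mcam (chromosome 9, 44134469 to 44142727) had 15.1, 13.8, 14.1 and 14.3 CPM in Neat1-/- mice, against 17.8, 15.9, 19.4, 16.7 and 16.7 CPM in WT mice. The Neat1-/- mice lay close together and did not overlap the WT mice. For Mcam the fitted log2 change was -0.27 (SE 0.0643, unadjusted p = 0.00106, adjusted p = 0.326 from edgeR), and the two-sided exact permutation test gave p = 0.0159. Markers of the vessel cells that also express Mcam overlapped between the genotypes: all 12 endothelial markers had counts in every library and summed to 359 to 376 CPM in Neat1-/- mice and 330 to 382 CPM in WT mice, and all 12 mural markers to 331 to 347 CPM in Neat1-/- mice and 295 to 392 CPM in WT mice. Of the endothelial markers 2 were nominally higher (Slco1a4 and Itm2a) and 0 lower, and 0 mural markers were nominally higher or lower. Of all genes tested, 4.27% were higher and 4.03% lower. Without WT replicates 3 and 4, 1 endothelial marker was higher, with no share over all genes given for that direction, and 0 were lower. In that fit 2 mural markers were lower (16.7%, against 3.48% of all genes tested) and 0 higher, with a mural median of -0.11. The part of mural RNA in the Mcam value was not tested. Which cells the Mcam counts came from was not measured.

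Tspan2, a tetraspanin of OLGs, had 76.7, 55.7, 63.9 and 79.2 CPM in Neat1-/- mice, against 116, 70.3, 81.6, 71.9 and 84.3 CPM in WT mice. WT replicate 1 stood highest, and WT replicates 2 and 4 lay within the Neat1-/- range. For Tspan2 the fitted log2 change was -0.30 (SE 0.124, unadjusted p = 0.0312). Evi2a, a small transmembrane protein gene, had 10.9, 8.635, 9.94 and 9.04 CPM in Neat1-/- mice, against 11.5, 7.96, 13.3, 12.7 and 13.3 CPM in WT mice. WT replicate 2 was again the lowest of the 9. For Evi2a the fitted log2 change was -0.28 (SE 0.113, unadjusted p = 0.0297). This value is uncertain, because Evi2a lies on the opposite strand within Nf1, which had 249 CPM, and shares 4030 bases with Evi2 on its own strand, and whether the counting used strand is not given in the sources used here. Tmem125, Tmem88b and Nipal4, membrane proteins enriched in myelinating OLGs, had log2 fold changes of -0.21, -0.22 and -0.21 with unadjusted p-values of 0.0854, 0.0883 and 0.250.

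**Figure D2:**
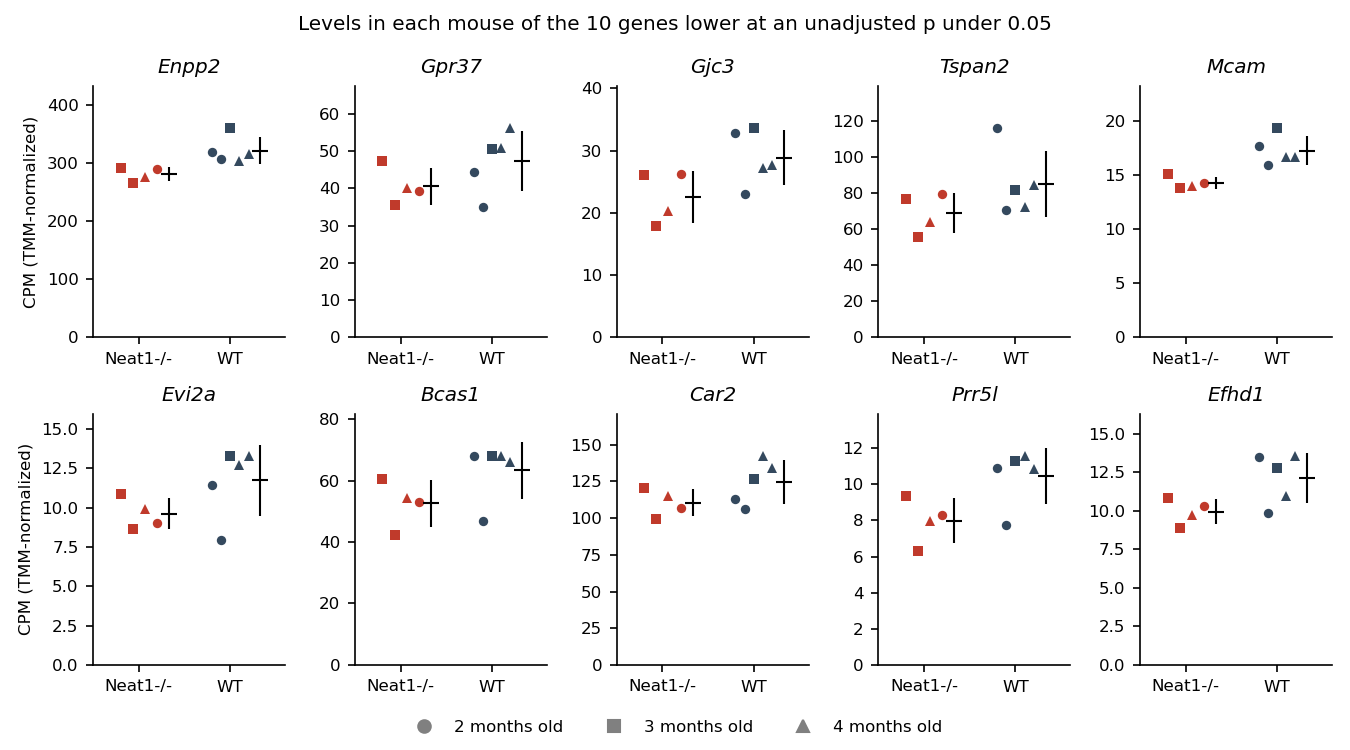
Level in each mouse (y axis, TMM-normalized CPM, starting at 0) of the 10 nominally lower genes, with Neat1-/- mice in red at the left and WT mice in dark blue at the right of each panel. Marker shape gives age and black bars the mean ± SD (n = 4 and n = 5); in Enpp2 and Mcam the 2 groups do not overlap, and in the other 8 panels at least 1 WT mouse falls within the Neat1-/- range or below it.

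Cytoskeleton and scaffold proteins, 7 genes, were all below 0 with a median log2 fold change of -0.11. Of them 1 was nominally lower (14.3%, against 4.03% of all genes tested). This was Bcas1, which marks OLGs that are starting to myelinate. Bcas1 (chromosome 2, 170346991 to 170427845) had 60.6, 42.4, 54.2 and 53.0 CPM in Neat1-/- mice, against 68.0, 46.8, 67.8, 68.1 and 66.0 CPM in WT mice. The WT mice other than replicate 2 lay between 66.0 and 68.1 CPM, above every Neat1-/- mouse. For Bcas1 the fitted log2 change was -0.26 (SE 0.108, unadjusted p = 0.0298, adjusted p = 0.580 from edgeR), and 12 of 20 alternative fits kept it under 0.05. Sept4, a septin found in myelin, had 155.6, 125.6, 132.8 and 139.4 CPM in Neat1-/- mice, against 135.3, 129.8, 150.7, 154.0 and 155.5 CPM in WT mice, and the groups overlapped over nearly their whole range. For Sept4 the fitted log2 change was -0.06 (SE 0.061, unadjusted p = 0.315). Of 8 other septins 0 were lower and 0 higher (against 4.03% and 4.27% of all genes tested), with a median of -0.0030. Plekhb1, a membrane-binding protein with a pleckstrin homology domain, had 125, 96.6, 106 and 109 CPM in Neat1-/- mice, against 116, 97.7, 123, 122 and 133 CPM in WT mice, and a log2 fold change of -0.11 (unadjusted p = 0.165). Fitted log2 changes were -0.26 (SE 0.149) for Ermn, an actin-binding protein of the OLG cytoskeleton, and -0.15 (SE 0.156) for Anln, an actin and septin scaffold. Gsn, an actin-severing protein, and Ppp1r14a, an inhibitor of myosin phosphatase, had values of -0.0048 and -0.08, whose signs turned in some alternatives.

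Secreted and matrix proteins, 5 genes, held both genes with a fold change above 0. Of the 5, 0 were nominally lower and 0 higher (against 4.03% and 4.27% of all genes tested). Apod, a lipid-binding apolipoprotein, had 92.5, 89.0, 83.0 and 94.0 CPM in Neat1-/- mice, against 98.0, 85.1, 94.3, 65.7 and 103 CPM in WT mice. The 4 Neat1-/- mice lay inside the WT range, and WT replicate 4 was well below the others. Apod had a log2 fold change of 0.0050, and of -0.10 without WT replicate 4 (unadjusted p = 0.13 from edgeR). That mouse also had the least RNA of meningeal fibroblasts: the 14 listed markers, all with counts in every library, summed to 157 to 211 CPM in Neat1-/- mice and to 65.7 to 328 CPM in WT mice, with the lowest sum in WT replicate 4. None of the 14 was nominally lower or higher with all mice (against 4.03% and 4.27% of all genes tested). Without WT replicates 3 and 4, 5 of the 14 were lower (35.7%, against 3.48% of all genes tested). The part of meningeal RNA in the Apod value was not tested.

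Adamts4, a matrix protease that cleaves the proteoglycan versican and is made by myelinating OLGs, had 18.5, 12.5, 15.0 and 17.7 CPM in Neat1-/- mice, against 21.9, 13.4, 19.96, 18.0 and 20.3 CPM in WT mice. WT replicates 2 and 4 lay within the Neat1-/- range. For Adamts4 the fitted log2 change was -0.23 (SE 0.137, unadjusted p = 0.114). The counts of Adamts4 are uncertain too, since the strand setting of the counting is not given in the sources used here. Trf, the iron carrier transferrin, averaged 11.5 ± 1.97 CPM in Neat1-/- mice and 13.5 ± 2.38 CPM in WT mice, with a log2 fold change of -0.21, and of -0.19 without WT replicate 3, the mouse with the most choroid plexus RNA. Hapln2, a link protein of the matrix at nodes of Ranvier, had a log2 fold change of -0.21 (SE 0.134). Of 11 genes that handle iron with transferrin, 0 were nominally lower and 1 was nominally higher (against 4.03% and 4.27% of all genes tested). This was the ferritin light chain gene Ftl1 (89.3 ± 2.73 CPM in Neat1-/- mice, 80.8 ± 6.82 CPM in WT mice, unadjusted p = 0.0198 from edgeR).

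Klk6, a secreted protease of mature OLGs, had the largest fold change above 0 and was the gene with the fewest counts, from 17 to 82 per library. Its values were chosen for display after they were seen. Klk6 had 1.28, 0.96, 0.67 and 0.92 CPM in Neat1-/- mice, against 0.46, 0.27, 1.26, 1.104 and 1.17 CPM in WT mice. The WT mice aged 2 months were the low ones, and the 3 older WT mice lay within the Neat1-/- range. For Klk6 the fitted log2 change was 0.31 (SE 0.352, unadjusted p = 0.398), and 0.17 without the age term.

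Metabolic enzymes, 6 genes, were all below 0 with a median log2 fold change of -0.14. Of them 1 was nominally lower, Car2 (16.7%, against 4.03% of all genes tested). Car2 encodes carbonic anhydrase II, the carbon dioxide hydrating enzyme that marks OLGs in brain. Car2 (chromosome 3, 14886273 to 14900770) had 121, 99.2, 115 and 107 CPM in Neat1-/- mice, against 113, 106, 127, 143 and 134 CPM in WT mice. The 3 WT mice aged 3 or 4 months lay above every Neat1-/- mouse, and the pair aged 2 months lay within the Neat1-/- range. For Car2 the fitted log2 change was -0.16 (SE 0.0559, unadjusted p = 0.0122, adjusted p = 0.543 from edgeR), and 19 of 20 alternative fits kept it under 0.05. Qdpr, which regenerates tetrahydrobiopterin, had 89.6, 70.2, 80.1 and 76.2 CPM in Neat1-/- mice, against 82.5, 75.0, 87.9, 93.1 and 90.5 CPM in WT mice, with a log2 fold change of -0.11 (unadjusted p = 0.0819). Of 6 other genes of that cofactor's pathway, 0 were lower and 0 higher (against 4.03% and 4.27% of all genes tested), with a median of -0.02.

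Gamt, which completes creatine synthesis and is enriched in OLGs, averaged 7.02 ± 0.41 CPM in Neat1-/- mice and 7.83 ± 1.07 CPM in WT mice, with a log2 fold change of -0.16 (SE 0.1). Of its 4 partners in creatine synthesis, uptake and use, 1 was nominally lower (25.0%, against 4.03% of all genes tested). This was Gatm, which carries out the preceding step (60.7 ± 7.98 CPM in Neat1-/- mice, 70.3 ± 11.2 CPM in WT mice, log2 fold change -0.20, unadjusted p = 0.0399 from edgeR). Galnt6, a glycosyltransferase, Pip4k2a, a phosphoinositide kinase, and Carns1, carnosine synthase, had log2 fold changes of -0.18, -0.05 and -0.07 with unadjusted p-values of 0.238, 0.190 and 0.582. Carns1 lies 1.65 Mb from Neat1 on chromosome 19, the only one of the 35 on that chromosome.

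Stress, signalling and RNA-binding proteins, 5 genes, were all below 0 with a median of -0.10. Of them 2 were nominally lower, Prr5l and Efhd1 (40.0%, against 4.03% of all genes tested). Prr5l encodes a partner of the kinase complex mTORC2, and it had the most negative fold change of the 35. Prr5l (chromosome 2, 101714285 to 101883027) had 9.34, 6.33, 7.99 and 8.31 CPM in Neat1-/- mice, against 10.9, 7.75, 11.3, 11.6 and 10.8 CPM in WT mice. Only WT replicate 2 lay within the Neat1-/- range. For Prr5l the fitted log2 change was -0.38 (SE 0.125, unadjusted p = 0.00901, adjusted p = 0.543 from edgeR). Efhd1, a calcium-binding mitochondrial protein, had 10.8, 8.88, 9.75 and 10.3 CPM in Neat1-/- mice, against 13.5, 9.87, 12.8, 11.0 and 13.6 CPM in WT mice. Again WT replicate 2 was the one WT mouse inside the Neat1-/- range. For Efhd1 the fitted log2 change was -0.29 (SE 0.101, unadjusted p = 0.0137). Enpp2, Mcam, Prr5l and Efhd1 were nominally lower in all 20 alternative fits.

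Qk encodes quaking, the RNA-binding protein that OLGs need for myelin mRNA processing, and it had the most counts of the 35, from 21668 to 28072 per library. Qk had 437, 379, 429 and 418 CPM in Neat1-/- mice, against 417, 411, 446, 440 and 436 CPM in WT mice. Apart from Neat1-/- replicate 3 the 2 groups overlapped, and the fitted log2 change was -0.05 (SE 0.0403, unadjusted p = 0.255). These counts sum over its transcripts and do not separate the quaking isoforms. Ndrg1, a stress-responsive protein of myelinating glia, had 54.1, 44.8, 50.3 and 55.3 CPM in Neat1-/- mice, against 49.0, 47.6, 59.2, 57.8 and 61.1 CPM in WT mice, with a log2 fold change of -0.10 (unadjusted p = 0.216). Cryab, a small heat shock protein, had one of -0.09 (unadjusted p = 0.229).

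The 35 genes spanned a wide range of levels. Per kilobase of exon, the mean level over the 9 mice was highest for Enpp2 (52.4 CPM per kb), Car2 (48.9 CPM per kb) and Qdpr (46.3 CPM per kb) and lowest for Klk6 (0.59 CPM per kb). Nominally lower genes were found over much of that range, with Enpp2 and Car2 among the 3 highest and Prr5l at 1.89 CPM per kb. The SD over mice was a median of 11.5% of the mean in Neat1-/- mice (3.73 to 26.1%) and 15.1% in WT mice (2.86 to 53.2%). For 8 of the 35 the difference between the group means was larger than the SD of either group, and all 8 were lower in Neat1-/- mice (against 7.02% of all genes tested lower and 9.47% higher by the same rule).

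The genes moved together from mouse to mouse within each genotype. Neat1-/- replicate 3 had the lowest value of its group in 27 of the 35 genes and the lowest of all 9 mice in 23, and Neat1-/- replicate 1 had the highest of its group in 27. WT replicate 2 had the lowest value of its group in 29 genes, and it lay below at least 1 Neat1-/- mouse in 33. WT replicate 5 had the highest value of all 9 mice in 13. Summed over the 35 genes, the level was 2027, 1665, 1841 and 1900 CPM in Neat1-/- mice, against 2046, 1799.5, 2146, 2051 and 2144 CPM in WT mice. Among the sums, 4 of 5 WT mice exceeded every Neat1-/- mouse, and WT replicate 2 did not. The genes are therefore not independent of each other, and their number is not a number of replicates.

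**Figure D3:**
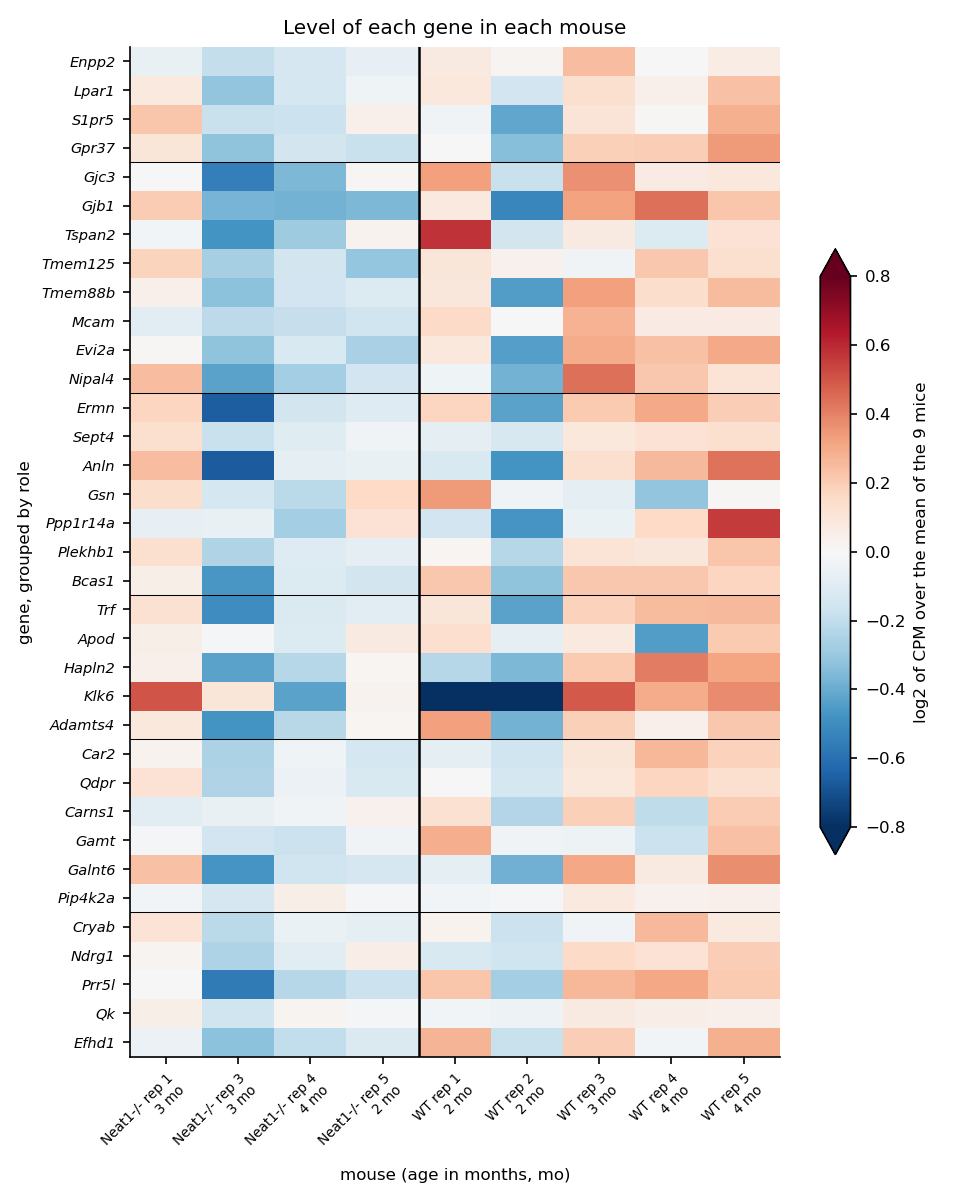
Level of each of the 35 genes (rows, grouped by role and divided by thin lines) in each mouse (columns, Neat1-/- mice left of the thick line and WT mice right of it), as log2 of CPM over the mean of the 9 mice; red is above the mean and blue below it. Neat1-/- replicate 3 is blue in nearly every row and WT replicate 2, mostly blue, had the lowest WT value in 29 genes; the 2 Klk6 cells at the blue end are the WT mice aged 2 months.

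The order of the mice by age differed between the genotypes. The Neat1-/- mouse aged 4 months lay above the one aged 2 months in 9 of the 35 genes (25.7%, against 9874 of all 19753 genes tested). In WT mice, both animals aged 4 months lay above both aged 2 months in 22 of the 35 (62.9%, against 16.0% of all genes tested), and below both in 0 of 35 (17.3%). Hapln2 had 11.5 CPM at 2 months, 11.6 and 8.43 CPM at 3 months and 9.67 CPM at 4 months in Neat1-/- mice. In WT mice the same gene had 9.65 and 8.84 CPM at 2 months, 13.1 CPM at 3 months and 15.0 and 14.1 CPM at 4 months. Hapln2 was chosen for display after its values were seen, and the difference in age order between the genotypes was not tested.

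Set against WT mice of the same age, the Neat1-/- mice were low at some ages and not at others. At 2 months, the Neat1-/- mouse lay below both WT mice in 3 of the 35 genes, Enpp2, Mcam and Tmem125 (8.57%, against 32.2% of all genes tested), and above both in 9 (25.7%, against 33.5%). At 3 months, both Neat1-/- mice lay below the WT mouse in 25 genes (71.4%, against 39.0%) and above it in 0 (against 41.4%). At 4 months, the Neat1-/- mouse lay below both WT mice in 31 (88.6%, against 29.3%) and above both in 1, Pip4k2a (2.86%, against 30.0%). Each age held only 1 or 2 mice of a genotype, 1 of the 2 WT mice aged 2 months was the low replicate 2, and 2 of the 3 older WT mice were the ones apart on the first principal component, so age and single mice cannot be told apart, and no test was made.

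Other OLG lineage lists also had medians below 0. All 11 structural myelin protein genes were below 0, with a median log2 fold change of -0.28. Of them 7 were nominally lower (63.6%, against 4.03% of all genes tested). Among them, the surface protein gene Opalin averaged 8.23 ± 0.55 CPM in Neat1-/- mice and 10.9 ± 1.86 CPM in WT mice (log2 fold change -0.40, unadjusted p = 0.00475, adjusted p = 0.467 from edgeR). Of 7 myelin lipid enzyme genes 1 was lower (14.3%), Ugt8a, which makes galactosylceramide, and the list's median was -0.12. Of 11 lineage transcription factor genes 3 were lower (27.3%), Olig1, Olig2 and St18, with a median of -0.15. In Olig1 and Olig2 every Neat1-/- mouse lay below every WT mouse (2 of 11, against 1.01% of all genes tested). Of 11 tested progenitor markers 1 was lower (9.09%), Gpr17, a receptor of progenitors committed to differentiate, and the median was -0.12. None of these lists had a gene higher at that level. Without WT replicates 3 and 4 the lower counts were 4 of the myelin proteins (36.4%), 0 of the lipid enzymes, 2 of the transcription factors (18.2%) and 3 of the progenitor markers (27.3%). Of all genes tested, 3.48% were lower in that fit. In it 1 transcription factor gene was higher, with no share over all genes given for that direction. In the myelin protein list the median of log2 CPM, less each gene's mean over the 9 mice, was 0.06, -0.47, -0.30 and 0.04 in Neat1-/- mice and 0.40, -0.25, 0.20, 0.05 and 0.21 in WT mice. For the 35 genes it was 0.07, -0.25, -0.13 and -0.06 in Neat1-/- mice and 0.10, -0.22, 0.20, 0.13 and 0.23 in WT mice. Neat1-/- replicate 3 and WT replicate 2 were thus the low mouse of each genotype in both lists.

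Lists of the other main brain cells had medians close to that of all genes. The median log2 fold change was 0.04 for 12 astrocyte markers, 0.05 for 12 microglia markers and 0.03 for 12 neuron markers, and all had counts in every library. Of these, 2 astrocyte markers and 5 microglia markers were nominally higher (of 12 each, against 4.27% of all genes tested). In C1qa, a microglia marker, every Neat1-/- mouse lay above every WT mouse (against 1.66% of all genes tested). None of either list was lower, while 1 neuron marker was lower, Nefl, a neurofilament gene (against 4.03% of all genes tested). The summed astrocyte level was 5423 to 5457 CPM in Neat1-/- mice and 4887 to 5594 CPM in WT mice, and the summed microglia level was 388 to 418 CPM in Neat1-/- mice and 362 to 414 CPM in WT mice. Choroid plexus markers had a median of -0.88, with 4 of 11 lower (Otx2, Sostdc1, F5 and Prlr), or 36.4%, against 4.03% of all genes tested. For Otx2, F5 and Prlr the highest mouse was WT replicate 3. Sostdc1, a secreted inhibitor of BMP and Wnt signals, was low in all libraries and had 0.14, 0.17, 0.065 and 0.076 CPM in Neat1-/- mice, against 0.34, 0.27, 0.44, 0.499 and 0.345 CPM in WT mice, so its groups did not overlap and WT replicate 4 was the highest. Without WT replicate 3 the choroid plexus median was -0.17, and 1 of 10 tested markers was lower, Sostdc1. Without WT replicates 3 and 4 the medians were -0.02 for astrocyte, 0.0085 for microglia, 0.0050 for neuron and -0.34 for choroid plexus markers. The nominally higher markers then numbered 3 astrocyte and 1 microglia, but the share of all genes higher in that fit is not given here. The lower ones numbered 1 astrocyte, 0 microglia, 1 neuron and 2 choroid plexus. Of all genes tested, 3.48% were lower in that fit. Among the pathway lists, Ftl1 and Gatm were then no longer called, since 0 of the iron and 0 of the creatine partners were lower or higher, and the LPA, septin and tetrahydrobiopterin lists still had 0 in either direction. No test compared the 35 genes with these lists.

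**Figure D4:**
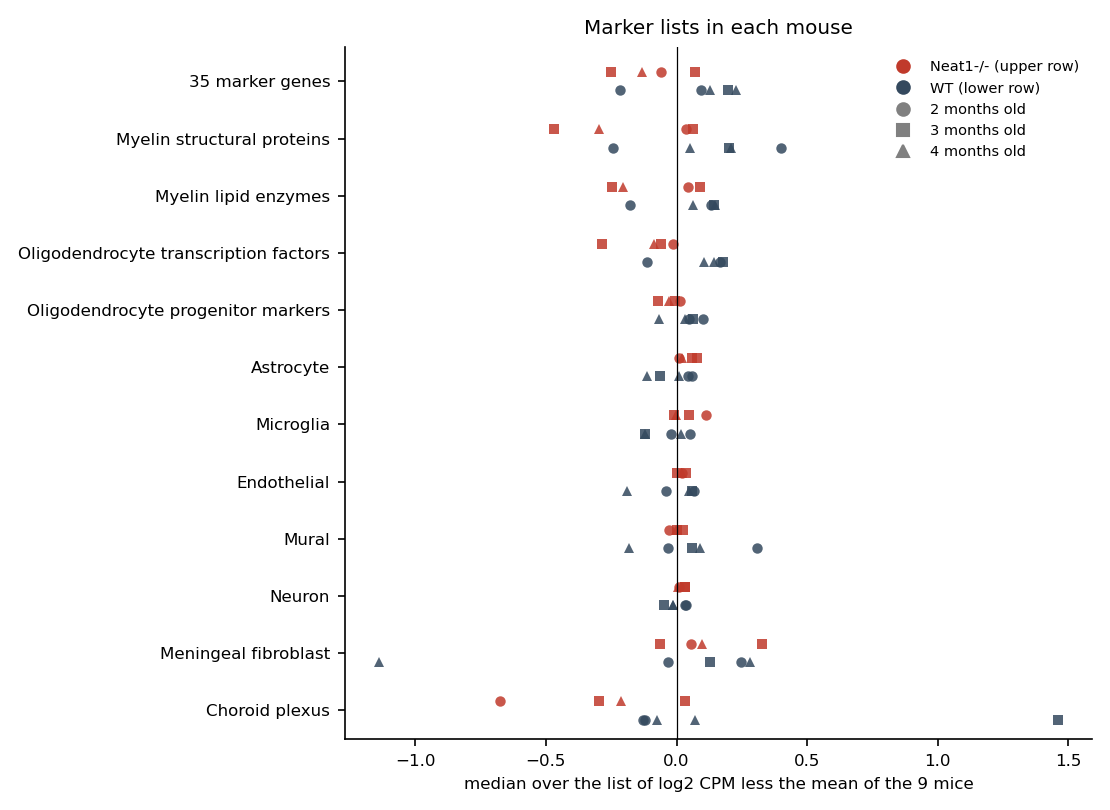
Median over each marker list of log2 CPM less the gene's mean over the 9 mice (x axis), with 1 point per mouse; Neat1-/- mice are in red in the upper row of each list, WT mice in dark blue in the lower row, and marker shape gives age. The 35 genes and the myelin proteins spread over the mice more than the astrocyte and neuron lists. For the 35 genes and the myelin proteins WT replicate 2 sits with the Neat1-/- mice, but for mural markers it is the highest mouse. The far points are WT replicate 3 for choroid plexus and WT replicate 4 for meningeal fibroblasts.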

How the data were processed

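Deposited data were raw counts per Ensembl gene and, for 13456 genes, log2 expression values that the authors had TMM-normalized and corrected for covariates. Reads were mapped to mm10 and counted with HTSeq 0.8.0 after STAR 2.5.0 by the submitters' notes, but with HTSeq in intersection-strict mode after TopHat and Bowtie by the study's supplement, and the strand setting is not given in the sources used here. Here the deposited counts were filtered by filterByExpr and fitted with edgeR 4.0.16 (R 4.3.3, TMM, quasi-likelihood test, age in months plus genotype, Benjamini-Hochberg over 19753 genes). Standard errors are the fold change over the root of F. Alternatives were DESeq2 1.42.0, limma 3.58.1, other size factors, filters and age terms, a replicate block and libraries left out. Names and positions came from GENCODE vM21. The test was tried on simulated counts. The 35 genes, the role and marker lists and the tests were chosen with earlier results of these data known, so no list is independent support. Shown are values per mouse for genes at an unadjusted p under 0.05 or fully separated and the 2 most abundant of each role, and elsewhere the called genes or the 2 most abundant. The edgeR p-values set the difference between genotypes against a spread between these mice that is drawn towards that of all genes. By the two-sided exact permutation test of CPM, which has no age term, 2 of the 35 had p under 0.05, Enpp2 and Mcam. The share of all genes under that test is not given here. The main edgeR fit gave both genotypes the same age slope. No column was left unmapped. Some gene-level results are not reported here.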

Additional observations from a re-analysis of the deposited data

Results flagged for a closer look

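Of 70 groups of values tested (35 genes in each genotype), 6 held 1 mouse far from the rest by Dixon's criterion, which chance alone meets in about 1 of 20 groups. In 4 of them the mouse was WT replicate 2, at the low end. It had 46.8 CPM of Bcas1 where the other WT mice had 66.0 to 68.1 CPM, 29.3 CPM of Ermn where the others had 44.6 to 48.8 CPM, 9.37 CPM of Trf where the others had 13.5 to 15.1 CPM, and 7.75 CPM of Prr5l where the others had 10.8 to 11.6 CPM. WT replicate 3 was high for Enpp2, with 360 CPM against 303.5 to 318.5 CPM in the other WT mice. Neat1-/- replicate 1 was high for Gjb1, with 7.83 CPM against 5.22 to 5.29 CPM in the other Neat1-/- mice.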

How the results depend on the processing

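Under 20 alternatives the median log2 fold change of the 35 genes stayed between -0.27 (without Neat1-/- replicate 1) and -0.12 (without Neat1-/- replicate 3), and 0 genes were higher at an unadjusted p under 0.05 in each of them. The count of genes lower at an unadjusted p, 10 in the main analysis, was 17 with no filter, 6 by limma voom, 6 without both WT replicates 3 and 4, and 6 to 21 when 1 mouse was left out. Genes at an adjusted p of 0.05 numbered 2 by DESeq2 and 1 with no filter. Wholly lower genes numbered 1 in the deposited normalized values, where 34 of the 35 are held, and 2 to 9 with 1 mouse left out. The 9 came without WT replicate 2, where 2.28% of all genes tested were wholly lower, against 1.01% with all mice. That share is not given for the deposited values or the other mice left out, so those counts have no baseline. The cause of these differences between settings was not tested.

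Replicate numbers did not pair the mice: the correlation of same-numbered deviations was 0.04, -0.04, 0.14 and -0.08. A replicate block raised the lower count to 18 (5.78% of all genes tested), and WT replicate 2, alone in its block, then carried no information. Of 699 single-gene values, 673 kept direction and side of the adjusted threshold, 3 passed it (Enpp2 by DESeq2 and with no filter, Mcam by DESeq2) and 23 changed sign, in 4 genes near 0. Apod turned to -0.0055 with library size alone, -0.0055 at 1 CPM in 4 libraries, -0.093 in the deposited values, -0.015 with age as 3 levels and -0.0975 without both WT replicates 3 and 4, and ran from -0.0956 to 0.107 with 1 mouse left out. Gsn turned to 0.00056 with no filter, 0.025 by limma voom and 0.00089 with age as 3 levels, and ran from -0.064 to 0.054. S1pr5 turned to 0.049 by limma voom and ran from -0.114 to 0.084, and Ppp1r14a ran from -0.227 to 0.072. With 4 and 5 mice, differences of the size seen here were mostly within the spread, and low genes such as Klk6 (17 counts at the least) are the least precise.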
